A study of Macaca mulatta with 11 samples.

Results

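Cumulus cells that had matured inside the follicle after hCG (VVM, 4 arrays) were compared with cumulus cells taken before maturation (PM, 4 arrays), in the rhesus macaque, Macaca mulatta. These 8 arrays were chosen by their titles from the 11 of the series, and all 14132 genes with a symbol of their own were compared. PM cells came from immature cumulus-oocyte complexes of females that had received FSH and no ovulatory stimulus. VVM cells came from complexes of females that had received FSH and then hCG, which stands in for the LH surge. The other 3 arrays (IVM) held cumulus cells of complexes that matured in culture after FSH alone, and they enter only through the shared estimate of spread and where their levels are given. FSH stimulation was common to all 3 groups, so no group shows an unstimulated follicle, and VVM differs from PM both in hCG exposure and in the hours that had passed. The series set out to find markers of oocyte quality in cumulus cells, with the PM cells there to show developmental transitions. No label gives an animal, an age or a time after hCG. Whether the 4 arrays of a group stand for 4 females is not stated either, and the tests can speak only of variation among these arrays, some of which may be technical.

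Cumulus cells are the granulosa cells that surround the oocyte and are coupled to it by gap junctions. The LH surge, or hCG in its place, acts first on the mural granulosa, which releases EGF-like ligands such as amphiregulin, and these act on the EGF receptor of the cumulus cells. The cumulus cells then lay down a hyaluronan-rich matrix and separate from each other, a change called expansion, while the granulosa of the follicle leaves the cell cycle and turns from oestradiol towards progesterone synthesis.

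All values are log2 intensities of the array, where a difference of 1 is a doubling, and a gene was called when its adjusted p was under 0.05 in a limma fit over all arrays. Arrays of a group resembled each other more than arrays of different groups. Pearson's r over all 52766 tested probe sets was 0.980 to 0.987 among the PM arrays and 0.977 to 0.984 among the VVM arrays. Between PM and VVM arrays it was 0.925 to 0.952 (the probe sets are no replicates). For the labelled cell type, INHA, the inhibin alpha subunit, was high in both groups, at 13.84 ± 0.11 in PM and 13.49 ± 0.09 in VVM (SD, n = 4 each), and so was SERPINE2, a protease inhibitor of granulosa cells, at 14.53 ± 0.05 and 14.45 ± 0.06. Of 15 measured cumulus and granulosa markers, 10 were lower in VVM and 1 was higher, with a median difference of -0.82, against 21.8% of all genes lower and 18.0% higher. FSHR, LHCGR, GJA1, CYP11A1, PTGS2, EREG and CCND2 have no probe set with a single symbol here and were not analysed.

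Some arrays stood apart. PM 1 carried RNA of oocyte genes: NLRP5, of the oocyte's subcortical complex, read 8.45 in PM 1 against 3.13, 3.25 and 3.16 in the other PM arrays, and ZAR1 read 8.47 against 4.40, 4.24 and 4.61. The zona protein gene ZP3 read 9.57 in PM 1 against 6.07 to 6.30 in the other PM arrays, and no VVM array exceeded 6.99. VVM 2 and VVM 3 carried more leukocyte RNA than the others: the macrophage protein gene LYZ read 7.62 and 9.51 there, 5.10 in VVM 1, 4.79 in VVM 4 and 3.36 to 4.10 in PM. The mean log2 level of the 21 measured leukocyte genes was 6.29 ± 0.70 in VVM and 5.46 ± 0.03 in PM (SD, n = 4 each), with no overlap (exact permutation p = 0.0286, two-sided, the smallest that 4 against 4 arrays allow). Spiked-in hybridization controls, which are bacterial and phage RNA and carry no biology of the cells, also read higher in VVM (11.04 ± 0.43) than in PM (10.09 ± 0.21), by 0.95 and again without overlap (exact permutation p = 0.0286, two-sided). The part of these 3 features in the results below was not tested beyond the fits that leave arrays out or hold a level as a covariate.

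**Figure D1:**
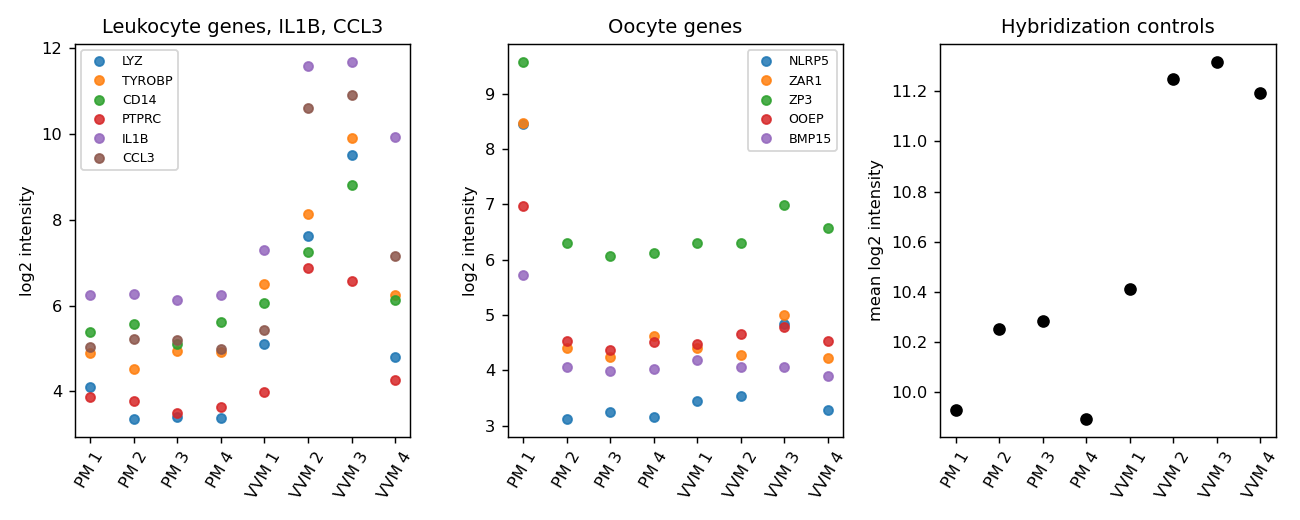
Log2 intensity by array (1 point per array and gene) of 4 leukocyte genes with IL1B and CCL3 (left) and of 5 oocyte genes (middle), and the mean log2 intensity of the hybridization controls (right, vertical axis not from 0). VVM 2 and VVM 3 are highest for the leukocyte genes, PM 1 is highest for all 5 oocyte genes, and the controls of every VVM array lie above those of every PM array.

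In vivo maturation went with a wide change of the cumulus transcriptome. Of 14132 genes, 2548 rose (18.0%) and 3074 fell (21.8%), and these shares are the background for each gene group below. The largest changes were rises: 115 genes rose and 72 fell by 8-fold or more, 47 rose and 13 fell by 16-fold or more, and 22 rose and 0 fell by 32-fold or more (limma called 3074 genes lower at any size). Small rises were common among dim genes, since 414 of the 2548 genes that rose lay below the array medians in both groups, against 121 of the 3074 that fell. When each array was centred on its own median, 1708 genes rose and 3530 fell, so that rises made up 32.6% of calls in place of 45.3%. With the hybridization control level as a covariate, which itself separates the groups, 683 genes rose and 894 fell. With the level of 4 leukocyte genes as a covariate 929 rose and 1532 fell. That level separates the groups too, at 4.37 ± 0.14 in PM and 6.74 ± 1.64 in VVM (SD, n = 4 each). Both covariates are thus partly confounded with the group. Leaving out PM 1, VVM 2 and VVM 3 together left 1153 rises and 1872 falls; without PM 1 alone there were 1905 and 2641.

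**Figure D2:**
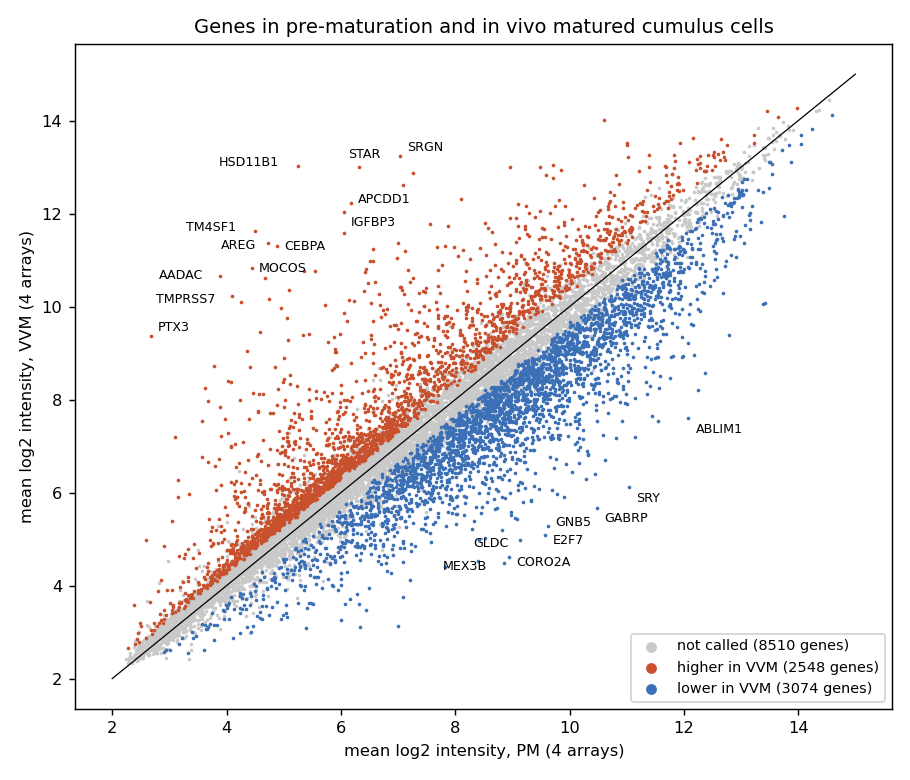
Mean log2 intensity of each of 14132 genes in PM (horizontal) and VVM (vertical), 4 arrays each; the line marks equal levels, and colours mark limma calls. The 12 genes named for the largest rises and 8 named for the largest falls are labelled; rises reach farther from the line than falls.

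HSD11B1 showed the largest rise. It encodes the enzyme that regenerates active cortisol from cortisone, and it read 5.25, 4.71, 5.58 and 5.47 in PM 1 to 4 and 13.07, 12.98, 13.61 and 12.39 in VVM 1 to 4. Every VVM array was thus far above every PM array, and the difference of 7.77 ± 0.54 (SE) is a 218-fold rise (adjusted p = 7.76e-06). STAR, which carries cholesterol into the mitochondrion for steroid synthesis, read 7.08, 4.40, 7.31 and 6.45 in PM and 12.71, 13.47, 13.29 and 12.57 in VVM, a 104-fold rise (6.70 ± 0.56 SE, adjusted p = 1.79e-05). PM arrays varied more for STAR than VVM arrays did, and the groups did not overlap. TM4SF1, a tetraspanin-like surface protein gene, rose by 7.14, and its 3 probe sets agreed in direction. CEBPA, a transcription factor of the C/EBP family that takes part in ovulation, rose by 6.40, from 4.89 ± 1.09 to 11.29 ± 0.36 (SD, n = 4 each). SRGN, the core protein of the proteoglycan serglycin, was tight in both groups: it read 6.48 to 7.56 in PM and 12.94 to 13.52 in VVM, a rise of 6.21 ± 0.26 (SE).

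Other genes among the largest rises were less even across arrays. AADAC, an esterase gene of the endoplasmic reticulum, rose by 6.78, but it read 7.58 in VVM 1 against 11.04 to 12.39 in the other VVM arrays, and only 1 of its 2 probe sets was called. MOCOS, which activates the molybdenum cofactor of xanthine dehydrogenase, rose by 6.40, and APCDD1, an inhibitor of Wnt signalling at the membrane, rose by 6.05. TMPRSS7, a transmembrane serine protease gene, was 4.09 ± 0.16 in PM and 10.22 ± 1.12 in VVM (SD, n = 4 each). VVM 1, at 11.75, was the highest array for TMPRSS7, VVM 2, at 9.04, was the lowest of its group, and the groups were over 4 log2 units apart.

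Among the falls, GABRP, a subunit of the GABA-A receptor, read 10.28, 10.83, 9.05 and 11.75 in PM and 5.62, 5.69, 5.87 and 5.50 in VVM. PM arrays were spread and VVM arrays nearly alike, and the 27.9-fold fall (-4.80 ± 0.43 SE, adjusted p = 2.41e-05) left no overlap. ABLIM1, an actin-binding LIM protein gene, fell by 4.48, from 12.08 ± 0.45 to 7.60 ± 0.39 (SD, n = 4 each). GLDC, the glycine-cleaving enzyme of mitochondria, fell by 4.16, with VVM arrays between 4.85 and 5.10. GNB5, a G protein beta subunit that pairs with RGS proteins, fell by 4.35, and CORO2A, a coronin, fell by 4.31. MEX3B, an RNA-binding protein gene, fell by 4.38, USP21, a deubiquitinase gene with 4 of 4 probe sets called, by 4.04, and EFNB1, the membrane ligand ephrin-B1, by 4.02. E2F7 (fall of 4.50) and DTL (fall of 4.01), a repressor of E2F targets and a substrate adaptor of the CRL4 ubiquitin ligase in S phase, belong with the cell cycle genes described further on. The deepest fall, of 4.94, was at a probe set annotated to SRY, a gene of the Y chromosome; its other probe set was not called and cumulus cells come from females, so the name is in doubt.

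**Figure D3:**
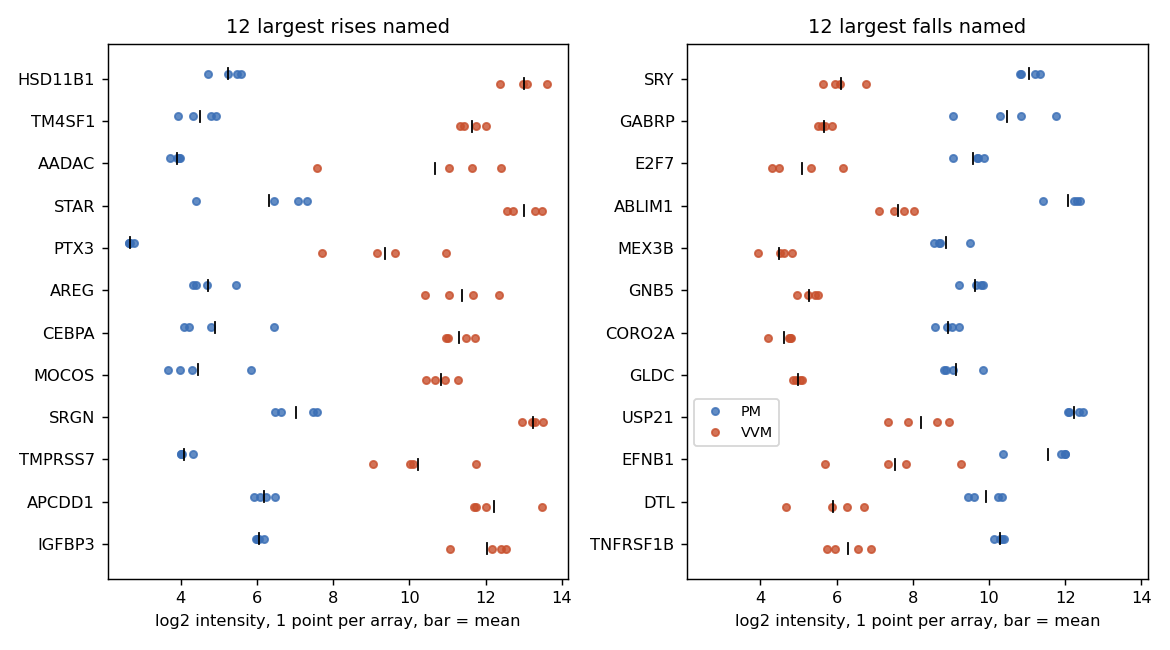
Log2 intensity by array of the 12 genes named for the largest rises (left) and the 12 for the largest falls (right); points are single arrays (4 PM, 4 VVM) and black bars are group means. No gene shown has overlapping groups. AADAC, PTX3, TMPRSS7 and EFNB1 are among those spread in VVM, and GABRP, STAR and CEBPA among those spread in PM.

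The EGF-like ligands and the brakes on their receptor did not all go one way. Amphiregulin (AREG) read 4.41, 4.70, 4.32 and 5.44 in PM and 11.05, 11.66, 12.36 and 10.40 in VVM, a 101-fold rise (6.65 ± 0.54 SE, adjusted p = 1.51e-05). Betacellulin (BTC), another ligand, had overlapping groups (8.28 to 9.58 in PM, 7.37 to 8.61 in VVM) and fell by 1.19 (adjusted p = 0.0258). That call for BTC was lost without any of PM 1, PM 4, VVM 2, VVM 3 or VVM 4, and the difference was 0.01 with the hybridization controls as a covariate. The receptor EGFR itself was 7.45 ± 0.56 in PM and 6.84 ± 0.46 in VVM (SD, n = 4 each) and did not pass (adjusted p = 0.123). Feedback inhibitors were among the rises. SPRY1, which blocks the Ras-ERK pathway, read 6.48, 6.86, 7.07 and 6.80 in PM and 9.53, 9.89, 10.34 and 10.04 in VVM, and LRIG1, which sends ErbB receptors to degradation, rose by 3.13 ± 0.26 (SE). In the list of EGF receptor ligands, receptors and feedback, 5 of 18 measured genes rose and 2 fell, with a median difference of 0.07 against 0.04 over all genes. SPRY2 (0.10), SPRED2 (-0.47), DUSP4 (0.05) and DUSP5 (0.40) did not pass.

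Genes of cumulus expansion rose as a large share of their list. Of 22 measured genes, 12 rose and 4 fell, and the median difference was 0.59. PTX3, which cross-links hyaluronan chains, read 2.64, 2.76, 2.66 and 2.63 in PM, below the array medians, and 9.15, 9.63, 10.97 and 7.70 in VVM. All VVM arrays were high for PTX3 and VVM 4 was the lowest of them; the difference was 6.69 ± 0.75 (SE, adjusted p = 8.93e-05). TNFAIP6, which moves heavy chains onto hyaluronan, read 4.42 to 4.82 in PM and 9.81, 9.48, 7.89 and 10.66 in VVM, a 29.5-fold rise. Here VVM 3 was the lowest array of its group, the array that was highest for PTX3. HAS2, the hyaluronan synthase, read 4.42, 6.90, 4.35 and 4.72 in PM and 7.99, 7.06, 6.91 and 7.59 in VVM. PM 2 thus lay just under the lowest VVM array, and the rise of 2.29 ± 0.54 (SE, adjusted p = 0.00789) was much smaller than that of the cross-linkers. Versican (VCAN), the proteoglycan that binds hyaluronan, was already high in PM at 12.69 ± 0.12 and rose by 0.64 to 13.32 ± 0.20 (SD, n = 4 each). The versican-cleaving proteases ADAMTS1 and ADAMTS9 rose by 4.22 and 5.54: ADAMTS9 read 6.49 to 7.52 in PM and 12.12 to 12.85 in VVM, while ADAMTS1 was less even, at 9.83, 8.40, 11.01 and 7.93 in VVM. The transcription factors CEBPB (2.42) and RUNX1 (1.67) rose too. PGR, the progesterone receptor, read 4.90 to 5.94 in PM and 5.33 to 6.25 in VVM and did not pass (0.29, adjusted p = 0.385). SDC4, a cell surface heparan sulphate proteoglycan, fell by 2.56, and the BMP antagonist GREM1, which the oocyte induces in cumulus cells, fell by 1.63 ± 0.18 (SE), from 7.04 to 7.59 in PM to 5.54 to 6.02 in VVM. With the hybridization controls as a covariate 6 genes of the list rose, and 7 without PM 1, VVM 2 and VVM 3; the difference of HAS2 was then 2.0 (adjusted p = 0.241) and 2.46 (adjusted p = 0.0537).

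Proteases of the matrix and their inhibitors rose more often than any other list in the plot of calls by list: 19 of 32 measured genes rose and 3 fell, with a median of 0.89. Inhibitors and proteases rose side by side. TIMP1, the inhibitor of matrix metalloproteinases, read 10.40 to 10.82 in PM and 13.73 to 14.25 in VVM, a 10.6-fold rise (3.40 ± 0.15 SE), although only 1 of its 3 probe sets was called. TFPI2, a serine protease inhibitor, rose by 3.85, from 7.88 ± 0.52 to 11.73 ± 0.45 (SD, n = 4 each). PLAUR, the urokinase receptor, rose by 2.59, and the metalloproteinases MMP10, MMP1 and MMP19 by 2.76, 2.61 and 1.64, MMP19 with overlapping groups. MMP1 was uneven in VVM, at 6.95, 4.59, 5.48 and 6.82 against 3.25 to 3.49 in PM, but did not overlap. ADAM12, a membrane metalloproteinase, fell by 2.43, and the cathepsins CTSK and CTSD fell by 1.21 and 1.04, CTSK with overlapping groups. The count of rises was 10 with the hybridization controls as a covariate.

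Structural matrix genes split. Of 33 measured, 12 rose and 9 fell, with a median of 0.21. EFEMP1, the fibulin-3 gene, rose by 5.96 ± 0.56 (SE), from 3.79 to 5.61 in PM to 9.25 to 11.64 in VVM. COL18A1, a basement membrane collagen, rose by 2.58 and the laminin chain LAMB1 by 1.90. FBLN1, which binds versican, fell by 2.36, COL6A3 by 1.81, and CCN2, a target of TGF-beta and of YAP, by 1.80, with 1 of its 3 probe sets called. TGFBI, a TGF-beta-induced matrix protein gene, had overlapping groups: PM 1 read 6.68 and the other PM arrays 4.11 to 4.47, against 7.45, 7.79, 10.63 and 5.70 in VVM. Its 8.02-fold rise (adjusted p = 0.0297) was not called without any of PM 2, PM 3, PM 4, VVM 2 or VVM 3, and with the leukocyte genes as a covariate its difference was 0.30 (adjusted p = 0.886). The falls of the list numbered 3 with either covariate or without PM 1, VVM 2 and VVM 3.

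Steroid genes changed in both directions. The cholesterol carrier STAR and the cortisol-forming HSD11B1 rose as given above, whereas HSD17B1 and CYP19A1 fell. HSD17B1, which makes oestradiol from oestrone, read 13.63, 12.87, 13.24 and 13.80 in PM and 9.48, 10.98, 10.52 and 9.27 in VVM, a fall of 3.32 ± 0.43 (SE, adjusted p = 0.000219). CYP19A1, the aromatase, read 9.20, 10.64, 10.25 and 8.94 in PM and 7.28, 8.66, 7.68 and 7.58 in VVM; every VVM array was below every PM array, with VVM 2 closest to PM 4, and the fall was 1.96 ± 0.38 (SE). HSD3B2, which makes progesterone from pregnenolone, overlapped (9.96 to 11.38 in PM, 9.58 to 11.07 in VVM) and did not pass (-0.13, adjusted p = 0.824). HSD17B7, an enzyme of both oestradiol and cholesterol synthesis, rose by 2.48 and HSD17B2, which inactivates oestradiol, by 1.26. The electron donors FDX1 and CYB5A rose by 0.88 and 1.59 while POR and FDXR fell by 2.02 and 0.72. Counting all 17 measured genes of steroid synthesis, 7 rose and 5 fell, with a median of 0.34; the falls numbered 3 without any of PM 1, PM 3, PM 4, VVM 1 or VVM 4.

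Cholesterol synthesis and uptake moved little beside this. Of 18 measured genes 4 rose (22.2%) and 2 fell (11.1%), against 18.0% and 21.8% of all genes, and the median was 0.14. NPC1, which releases cholesterol from lysosomes, rose by 1.29 ± 0.16 (SE, adjusted p = 0.000183), from 9.32 to 9.81 in PM to 10.61 to 11.19 in VVM. EBP (1.05), INSIG2 (0.77) and CYP51A1 (0.70) rose as well, CYP51A1 at adjusted p = 0.0470. Groups overlapped for INSIG2 and CYP51A1. The rises numbered 2 without any of PM 2, PM 3, VVM 3 or VVM 4, or after centring.

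Genes that mark FSH-stimulated granulosa were mostly lower after maturation. Of 19 measured genes 11 fell and 2 rose, with a median of -0.64. AMH, the anti-Müllerian hormone of growing follicles, read 10.91, 9.36, 9.65 and 11.34 in PM and 6.51, 6.88, 7.11 and 6.85 in VVM, an 11.2-fold fall (adjusted p = 0.000358). PM arrays ranged over almost 2 log2 units while VVM arrays lay close together. IHH, the hedgehog ligand that granulosa sends to the theca, fell by 3.79 ± 0.69 (SE), from 10.61 to 12.16 in PM to 6.62 to 8.59 in VVM. The transcription factor GATA4 fell by 2.94 ± 0.21 (SE), from 10.88 ± 0.29 to 7.94 ± 0.24 (SD, n = 4 each), and its partner GATA6 rose by 0.94, from 11.06 to 11.39 in PM to 11.87 to 12.42 in VVM. NR5A2, the nuclear receptor LRH-1, fell by 0.97 with overlapping groups.

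The inhibin and activin genes changed unequally. INHBB, the beta B subunit, fell by 1.79 ± 0.39 (SE), from 7.31 to 7.79 in PM to 5.06, 6.68, 5.85 and 5.69 in VVM. INHBA, the beta A subunit, read 11.62 to 12.41 in PM and 10.60, 11.90, 10.81 and 10.92 in VVM, and its difference of -0.82 did not pass (adjusted p = 0.0574); it passed without VVM 2, at -1.11. The fall of INHA was small, 0.35 (adjusted p = 0.0462), and was not called when any 1 of the 8 arrays was left out. Follistatin (FST), the activin-binding protein, fell by 0.64 (adjusted p = 0.0478), a call that held only without VVM 4 among the fits that left out 1 array. The falls in the granulosa list numbered 7 without PM 4 or VVM 1, and 4 with the hybridization controls as a covariate. Fewer cumulus cells of a kind and less RNA per cell cannot be told apart in these whole-sample arrays, here and in the groups that follow.

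TGF-beta and BMP signalling, by which the oocyte acts on cumulus cells through GDF9 and BMP15, had 6 rises and 11 falls among 30 measured genes, with a median of -0.49. BMPER, an extracellular BMP binder, fell by 3.23, from 5.76 to 6.89 in PM to 2.51 to 3.75 in VVM. The type I receptor ACVR1 fell by 1.87 and the signal transducers SMAD2, SMAD4 and SMAD5 by 1.07, 1.11 and 1.14. ID3, a target of BMP signals, read 10.52, 9.50, 9.64 and 10.96 in PM and 7.11, 9.22, 8.38 and 8.60 in VVM; its fall of 1.83 was not called without PM 1, PM 4 or VVM 1. Rises in the list were ID4 (1.57), the co-receptor TGFBR3 (1.54), the ligand TGFB1 (1.03) and the receptor TGFBR2 (0.84). SMAD7, the inhibitory SMAD, read 5.07 to 6.87 in PM and 5.22 to 5.65 in VVM and did not pass (adjusted p = 0.437). Falls numbered 5 without PM 1, VVM 2 and VVM 3 or with the leukocyte genes as a covariate, and 1 with the hybridization controls as a covariate.

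The cell cycle fell almost throughout. Of 37 measured genes of mitosis, the spindle and the centromere, 30 fell and 0 rose, with a median of -1.98 (limma; at an unadjusted p under 0.05, 32 were lower and 0 higher). Of 30 measured genes of DNA replication, 23 fell and 2 rose, with a median of -1.90. Among histones and chromatin proteins of dividing cells 16 of 22 fell and 1 rose, with a median of -0.89. MKI67, the proliferation marker Ki-67, read 10.30, 9.89, 10.05 and 10.11 in PM and was 7.04 ± 0.75 in VVM (SD, n = 4), with a highest array of 7.79, an 8.27-fold fall (adjusted p = 0.000154). FOXM1, the transcription factor of the G2 and M phase programme, read 9.32 to 9.52 in PM and 5.42 to 7.15 in VVM. PM arrays were nearly alike for both genes, and VVM 1 was the lowest and VVM 2 the highest of the matured arrays. Cyclin B1 (CCNB1) fell by 3.04 and CKAP2, a spindle protein gene, by 3.22. TPX2, a spindle assembly factor, read 8.30 to 9.31 in PM and 8.10 to 10.04 in VVM and did not pass (adjusted p = 0.915). CDK1 read 8.57 to 9.43 in PM and 5.89 to 9.12 in VVM. Its difference of -1.36 did not pass at the probe set used (adjusted p = 0.149), but 2 of its 3 probe sets were called lower.

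In S phase, cyclin E2 (CCNE2) read 7.46, 6.86, 6.44 and 7.24 in PM and 3.07, 3.14, 3.10 and 3.25 in VVM, a 14.6-fold fall (-3.87 ± 0.22 SE, adjusted p = 2.49e-06) to values below the array medians. The helicase subunits MCM2 and MCM5 fell by 3.10 and 3.06, and MCM3, MCM4 and MCM10 by 3.03, 2.56 and 3.06. UHRF1, which brings the maintenance methyltransferase to replicated DNA, fell by 3.60, and that methyltransferase, DNMT1, by 2.49. LMNB1, the nuclear lamin that dividing cells keep high, read 9.16 to 9.57 in PM and 4.44, 6.79, 6.17 and 5.90 in VVM. The helicase HELLS fell by 2.99 and the lamina protein gene TMPO by 2.68, with 5 of its 6 probe sets called. Against the trend, E2F1 rose by 0.67 (7.36 to 7.78 in PM, 8.28 to 8.36 in VVM) and GINS3 by 0.78.

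Genes of cell cycle exit and p53 targets changed in both directions. CDKN1A, which encodes p21, read 8.87, 10.81, 10.28 and 8.89 in PM and 12.75, 12.60, 12.82 and 12.89 in VVM, an 8.28-fold rise. GADD45B (4.08), GADD45A (2.51) and cyclin G1 (CCNG1, 2.36), which respond to stress or p53, rose too, as did MDM2 (1.43) and SESN1 (1.55). For GADD45A only 1 of 3 probe sets was called, and its PM arrays ranged from 7.55 to 10.75. CDKN1B, which encodes p27, fell by 1.22, and CDKN2C by 0.96. In this list 7 of 22 measured genes rose and 3 fell, with a median of 0.07. With the hybridization controls as a covariate the falls numbered 16 of 37 in mitosis, 10 of 30 in replication and 7 of 22 in chromatin, and 3 genes of the exit list rose; without PM 1, VVM 2 and VVM 3 the falls were 27, 22 and 11.

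**Figure D4:**
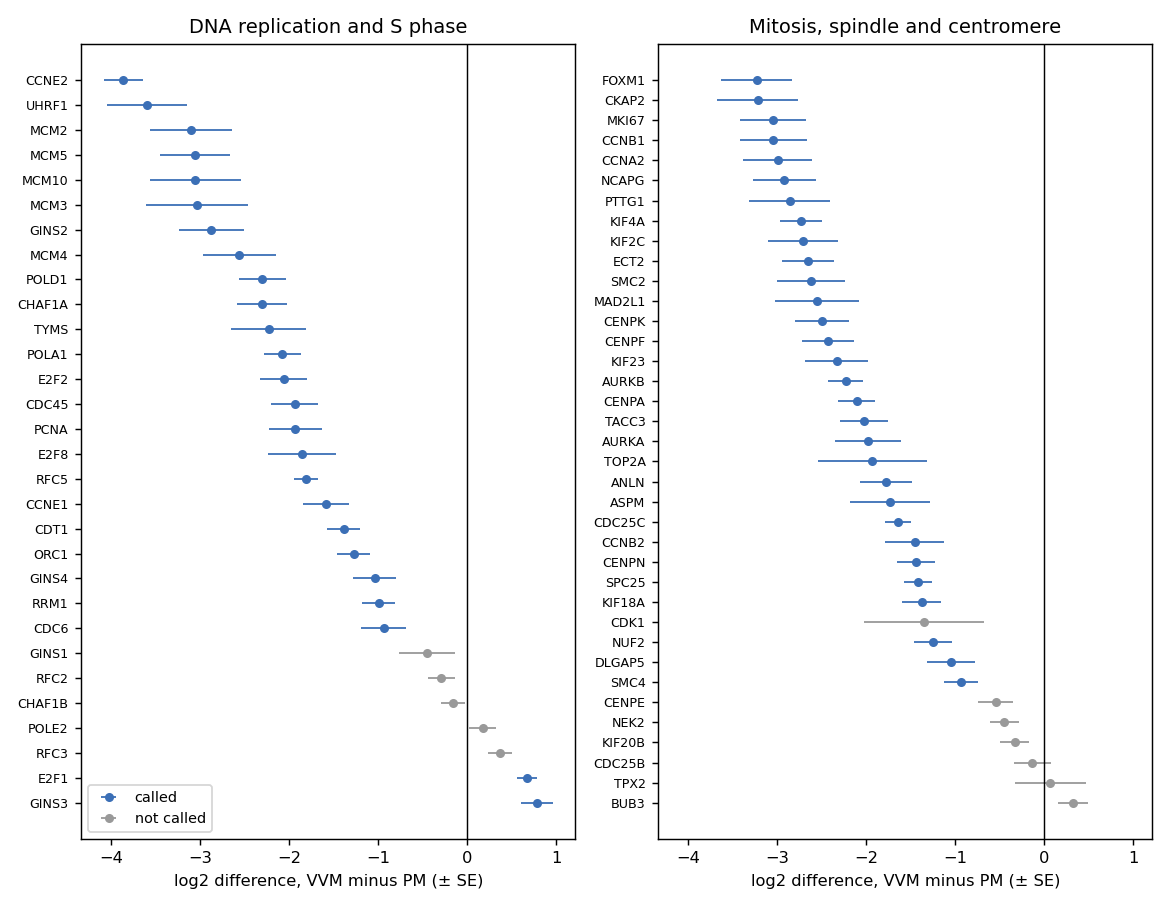
Log2 difference VVM minus PM (points, with SE bars) of each measured gene of DNA replication (left, 30 genes) and mitosis (right, 37 genes); blue points were called by limma and grey ones were not. All but 2 called genes, GINS3 and E2F1, lie left of 0.

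Genes of glucose use changed in part. Among 23 genes of glycolysis and lactate transport 11 fell and 6 rose, with a median of -0.43. Cumulus cells take up glucose and pass pyruvate and lactate to the oocyte. The lactate and pyruvate carrier SLC16A1 read 9.96, 10.27, 10.08 and 9.84 in PM and 6.85, 6.79, 6.29 and 5.84 in VVM, a 12.1-fold fall (-3.59 ± 0.35 SE, adjusted p = 3.78e-05). Its relative SLC16A7 went the other way, from 4.68 to 5.27 in PM to 6.92 to 7.82 in VVM (2.41 ± 0.26 SE). The same opposition appeared among the glucose carriers, with SLC2A1 falling by 2.01 and SLC2A3 rising by 1.70. Hexokinases HK1 and HK2 fell by 1.48 and 1.59, and the phosphofructokinases PFKL and PFKP by 1.86 and 1.72. LDHA, lactate dehydrogenase A, was abundant in both groups (13.36 to 13.44 in PM, 12.91 to 13.52 in VVM) and did not pass (-0.26, adjusted p = 0.192). Respiratory chain and ATP synthase genes had 2 rises and 7 falls of 33, none by 2-fold, and 3 falls without PM 4 or VVM 3.

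The binding proteins IGFBP3 and IGFBP1 and the ligand IGF1 showed large rises. IGFBP3, the main carrier of IGF in serum, read 5.98, 5.99, 6.05 and 6.18 in PM and 12.17, 11.07, 12.39 and 12.52 in VVM, a 63.5-fold rise (5.99 ± 0.29 SE, adjusted p = 1.19e-06). IGFBP1, another binding protein, read 3.40, 3.49, 3.59 and 5.61 in PM and 8.06, 8.08, 10.27 and 7.21 in VVM. PM 4 was high for IGFBP1 among the PM arrays but still below the lowest VVM array. The ligand IGF1 rose by 3.60 ± 0.63 (SE), from 6.09 to 7.91 in PM to 9.28 to 10.94 in VVM, and all 4 of its probe sets were called. STC1, a stanniocalcin that blocks a protease of IGF-binding proteins, rose by 3.12. The receptor IGF1R (-0.34) and the ligand IGF2 (-0.66) did not pass, while the adaptor IRS2 rose by 1.57 and IRS1 fell by 1.33, and the kinases AKT1 and AKT2 fell by 1.81 and 1.19. Over 22 measured genes 9 rose and 5 fell, with a median of 0.66; the falls numbered 3 without PM 3 or VVM 3, and the rises 4 with the hybridization controls as a covariate, where the difference of IGF1 was 2.91 (adjusted p = 0.138).

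Regulators of cyclic nucleotides and G proteins included a few large changes. PDE5A, the phosphodiesterase of cyclic GMP, read 5.38, 5.32, 5.92 and 5.55 in PM and 11.01, 10.20, 10.28 and 11.60 in VVM, a 37.5-fold rise (adjusted p = 1.84e-06), and 3 of its 5 probe sets were called. RGS2, which ends signals of Gq-coupled receptors, read 10.83 in PM 1 but 5.89 to 6.30 in the other PM arrays, against 13.35, 12.02, 13.49 and 12.60 in VVM. PM 1 was thus nearer to the VVM arrays for RGS2, and the rise was 5.61 ± 0.94 (SE, adjusted p = 0.00112) with PM 1 and 6.80 without it. RGS4 fell by 2.47 and the cAMP-responsive factor CREB1 by 1.89 ± 0.15 (SE), from 9.97 to 10.45 in PM to 8.01 to 8.60 in VVM. Of 38 measured genes 6 rose and 8 fell, with a median of 0.12, shares close to the background; 10 rose without VVM 4. Among 11 genes of prostaglandin synthesis and reception 4 rose and 2 fell, none of the rises by 2-fold: the prostaglandin exporter ABCC4 rose by 0.91, the receptors PTGIR and PTGER1 by 0.55 and 0.50, and PTGFRN fell by 1.09. All 4 of those rises failed without PM 1, VVM 2 and VVM 3.

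Genes of cell contacts changed in both directions. The tight junction genes CLDN1 and F11R rose by 4.69 and 4.47: CLDN1 read 4.57, 4.32, 4.96 and 3.56 in PM and 9.51, 8.28, 9.09 and 9.29 in VVM, and F11R was called at all 4 of its probe sets. P-cadherin (CDH3) fell by 3.10 and desmoplakin (DSP) by 1.99. PM arrays were widely spread for CDH3 (8.83, 11.85, 10.78 and 12.59), and VVM 3, at 9.38, lay above PM 1. GJA5, the gap junction protein connexin 40, fell by 2.25, from 8.35 to 9.77 in PM to 7.78, 5.40, 5.93 and 7.81 in VVM; with the hybridization controls as a covariate its difference was -0.81 (adjusted p = 0.625). In all 4 of 20 junction genes rose (20%) and 6 fell (30%), against 18.0% and 21.8% of all genes, with a median of -0.12.

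Receptors and inhibitors of Wnt, Notch and hedgehog signals also moved both ways, with 12 rises and 8 falls among 40 measured genes and a median of 0.20. The secreted Wnt antagonists SFRP4 and SFRP1 fell by 3.53 and 2.44, and the Wnt receptors FZD7 and FZD4 by 2.43 and 2.32. SFRP4 read 10.14 to 10.73 in PM and 5.97, 6.71, 7.66 and 6.87 in VVM, but only 1 of its 4 probe sets was called. HHIP, which binds hedgehog ligands, rose by 3.38, from 6.13 to 8.63 in PM to 9.37 to 11.08 in VVM, beside the fall of the ligand IHH. The Notch targets HEYL and HEY1 rose by 2.66 and 1.95 and HEY2 fell by 2.27. KIT, the receptor of the KIT ligand that granulosa cells make, read 6.59, 5.35, 6.50 and 5.53 in PM and 10.23, 8.35, 10.28 and 8.78 in VVM, a 10.7-fold rise (adjusted p = 0.000897). KITLG, that ligand, rose by 0.51, from a mean of 4.53 to 5.04, below the array medians in both groups.

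Inflammatory genes rose together with leukocyte markers. Of 28 measured interleukins, chemokines and receptors 15 rose and 1 fell, with a median of 0.62. IL1B, interleukin 1 beta, read 6.25, 6.28, 6.14 and 6.24 in PM and 7.29, 11.58, 11.68 and 9.93 in VVM, a 14.8-fold rise (3.89 ± 0.90 SE, adjusted p = 0.00723). CCL3, a chemokine of macrophages, read 4.99 to 5.23 in PM and 5.44, 10.60, 10.92 and 7.16 in VVM. VVM 2 and VVM 3, the arrays with most leukocyte RNA, were also the highest for IL1B and CCL3, and VVM 1 was the lowest. IL1RN, the interleukin 1 receptor antagonist, was high in the same pair of arrays, at 6.74, 9.41, 9.44 and 5.37. Among 21 leukocyte markers 9 rose and 2 fell, the mean of the list spanning 5.44 to 5.50 in PM and 5.61 to 7.06 in VVM. LYZ rose by 3.19, TYROBP by 2.89, the class II gene MAMU-DRA by 2.45 and the common leukocyte antigen PTPRC by 1.73. PTPRC read 3.98 and 4.27 in VVM 1 and VVM 4, near the PM range of 3.49 to 3.87, and the B cell markers MS4A1 (0.21) and CD79A (0.23) did not pass. CSF1R, the macrophage colony factor receptor, was high in PM at 9.95 to 10.21 and fell by 2.57.

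Calls of the interleukin list changed with the arrays that entered the fit. Its rises numbered 9 without VVM 2 and 9 without VVM 3, 2 without PM 1, VVM 2 and VVM 3, and 1 with either covariate. CCL3 was not called without VVM 2 or VVM 3 (adjusted p up to 0.0608). Its difference was -0.12 with the leukocyte genes as a covariate, a level that itself separates the groups. The leukocyte markers themselves had 5 rises without PM 1 or VVM 2, 14 without VVM 4 and 0 with the hybridization controls as a covariate. TNFRSF1B, the type 2 receptor of TNF, did not follow them: it read 10.40, 10.29, 10.33 and 10.14 in PM and 6.56, 5.95, 6.90 and 5.75 in VVM, with group means of 10.29 and 6.29 (adjusted p = 9.39e-05). VCAM1, an adhesion molecule, overlapped between the groups and did not pass (0.74, adjusted p = 0.195); it passed without PM 3, at 1.17. Interferon-induced genes had 4 rises and 0 falls of 25 measured (limma; 8 and 0 at an unadjusted p under 0.05), a share of rises near the background: IFITM1 rose by 1.89, IFI27 by 1.47 and MX2 by 1.92, the last with VVM 3 at 8.15 and the other VVM arrays at 6.41 to 6.49.

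Markers of other cells moved less as lists. The mean log2 of 11 theca and stroma genes was higher in VVM by 0.49 (exact permutation p = 0.0286, two-sided, the smallest possible). Of these, 4 rose (36.4%) and 1 fell (9.1%), against 18.0% and 21.8% of all genes. Decorin (DCN) was 8.40 ± 1.34 in VVM against 6.26 ± 0.42 in PM (SD, n = 4 each), with 2 of its 5 probe sets called, and averaged 8.44 in IVM. NR2F2 (1.45), COL1A1 (0.61) and GLI1 (0.41) rose too, and LUM fell by 0.33. The theca enzyme gene CYP17A1 read 4.10 to 4.77 in all 8 arrays, below the array medians, and did not pass (0.34, adjusted p = 0.107). Endothelial genes differed by 0.24 (exact permutation p = 0.143). Of 12 measured, 4 rose (33.3%) and 1 fell (8.3%). VWF, PECAM1, TIE1 and ROBO4 rose by 2.32, 0.81, 0.45 and 0.45, and ERG fell by 2.63. Erythrocyte genes differed by 0.27 (exact permutation p = 0.314), oocyte genes by -0.19 (exact permutation p = 1) and epithelial genes by -0.02 (exact permutation p = 0.743). Of 7 erythrocyte genes only HBB was called: it read 7.23 to 7.81 in PM and 8.15 to 9.89 in VVM (1.77, adjusted p = 0.00194). The part of all these other cells in the matrix and junction results was not tested.

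**Figure D5:**
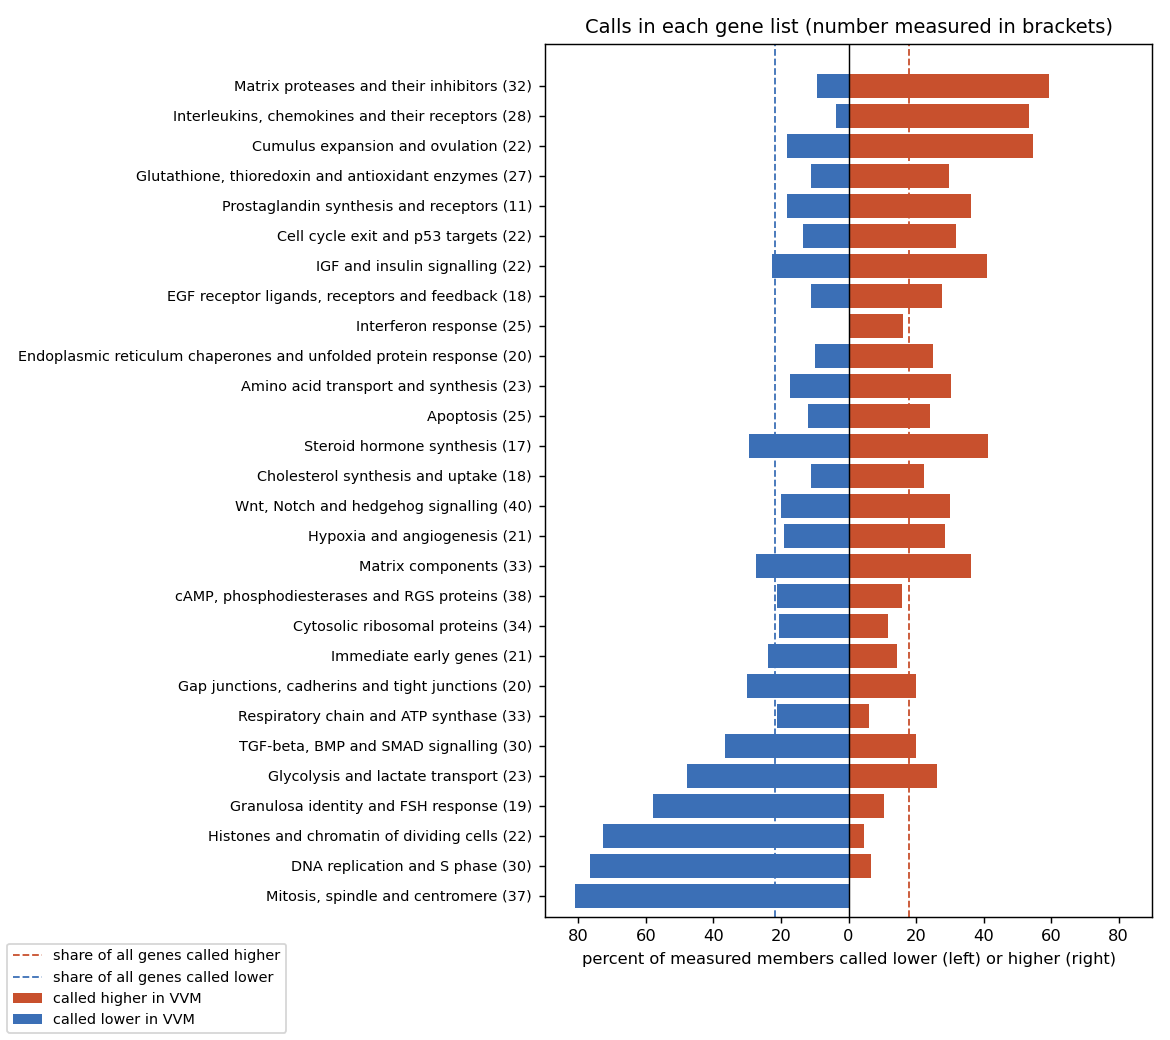
Share of the measured genes of each list (number in brackets) that were called higher (right, red) or lower (left, blue) in VVM than in PM; dashed lines mark the shares over all genes, 18.0% higher and 21.8% lower. Matrix proteases, expansion genes and interleukins reach farthest to the right and the 3 lists of dividing cells farthest to the left.

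Cells matured in culture give another level of the same genes. The comparisons of the 3 groups share arrays, so only mean levels are set side by side, in the order PM, VVM and IVM. For some genes the IVM mean lay near VVM: IGFBP3 was 6.05, 12.04 and 11.92, SRGN 7.03, 13.24 and 12.88, PDE5A 5.54, 10.77 and 11.03, and CDKN1A 9.71, 12.76 and 12.73. For others it lay near PM: LRIG1 was 5.90, 9.03 and 5.55, KIT 5.99, 9.41 and 4.90, SLC16A7 4.91, 7.32 and 4.96, and IGFBP1 4.02, 8.40 and 4.28. AREG (4.72, 11.37 and 6.63) and HSD11B1 (5.25, 13.02 and 9.12) were in between. BMPER (6.33, 3.10 and 7.42) and GJA5 (8.99, 6.73 and 11.37) were below PM in VVM and above it in IVM. SMAD7, which did not pass between VVM and PM, was 9.37 in IVM against 5.85 in PM and 5.51 in VVM. The IVM arrays had the highest hybridization controls, 11.46 to 12.18, which bears on each of these levels to an extent that was not tested.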

How the data were processed

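The deposited table holds linear intensity values of 52865 probe sets on 11 Affymetrix arrays, which the authors summarised by RMA in Affymetrix Expression Console, per the submitters' processing notes (versions not given). Per the labels, 50 ng of total RNA per sample went through repeated amplification and biotin labelling, which can weaken proportionality. Here log2 was taken without a pseudocount, 99 control probe sets were left out, and 52766 were tested. Of these 24956 have 1 gene symbol, 361 several and 27449 none; each of 14132 genes was read from its probe set with the highest mean over all arrays. Gene identifiers of 24629 of 25330 annotation rows matched RefSeq.

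limma 3.58.1 in R 4.3.3 fitted 3 group means to all 11 arrays, with eBayes and Benjamini-Hochberg adjustment over all tested probe sets (8 residual and 3.30 prior degrees of freedom); genes were called at adjusted p under 0.05, and every adjusted p in the text comes from limma. The script was tested on simulated data. Exact permutation tests over 8 arrays served single values. The number of arrays limits the precision, and arrays have no sequencing depth.

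Named genes are the 12 largest rises and falls without overlap between groups (genes with most of their probe sets not called the same way, and placeholder symbols, were passed over, which left out LOC699434, a fall of 4.05), 33 of 40 fixed genes that have a symbol, and up to 4 leading members of each gene list; genes named beyond these were chosen after their values were seen. The comparison, the lists and the tests were chosen with earlier results of these data known, and no count over a list is independent support. The labels do not say whether replicate numbers pair the samples. Residuals of same-numbered PM and VVM arrays had correlations of -0.03 to 0.02, which cannot settle where the samples came from. No sequence data were used here. Alternatives covered scaling, filters, probe set choice, thresholds, array weights, covariates, a replicate block and leaving out arrays.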

Additional observations from a re-analysis of the deposited data

Results flagged for a closer look

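Of 290 groups of 4 arrays examined (142 named genes, the hybridization controls, the leukocyte mean and the 3′ minus 5′ level, each in PM and in VVM), 26 had an array far from the other 3; the limit, a critical value of Dixon's ratio, is set so that chance marks about 1 group in 20. Oocyte RNA was not part of that search. PM 1 was the single array for RGS2 (10.83, others 5.89 to 6.30), TGFBI (6.68, others 4.11 to 4.47), MEX3B (9.50, others 8.55 to 8.70), UHRF1 (9.34, others 8.92 to 8.98), ADAMTS1 (4.48, others 5.25 to 5.29) and the leukocyte mean (5.50, others 5.44). PM 2 was apart for HAS2 (6.90, others 4.35 to 4.72), EFNB1 (10.36, others 11.88 to 11.99), GATA4 (11.32, others 10.71 to 10.76) and ZFP36L2 (10.89, others 12.07 to 12.30). PM 3 was apart for SFRP1 (11.92, others 10.32 to 10.54), KLF2 (8.77, others 7.79 to 7.93), ABLIM1 (11.41, others 12.23 to 12.38), INHA (14.01, others 13.78 to 13.80) and LDHA (13.36, others 13.43 to 13.44). PM 4 was apart for IGFBP1 (5.61, others 3.40 to 3.59), MCM5 (12.56, others 11.69 to 11.83), SLC2A1 (9.61, others 8.75 to 8.86), TMPRSS7 (4.33, others up to 4.04) and VCAN (12.51, others 12.72 to 12.76). In VVM the single array was VVM 1 for SLC6A6 (7.97, others 6.72 to 6.82), HSP90B1 (9.90, others 9.26 to 9.36) and the hybridization controls (10.41, others 11.20 to 11.32). It was VVM 2 for CORO2A (4.19, others 4.74 to 4.79), VVM 3 for MX2 (8.15, others 6.41 to 6.49) and VVM 4 for GLUL (10.69, others 11.09 to 11.13). Leaving out 1 array turned the sign of 0 of the 135 called named genes; HSD3B2, not called at -0.13, reached 0.22 without VVM 1.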

How the results depend on the processing

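Against 2548 rises and 3074 falls, a 2-fold minimum left 798 and 1603, and adjusted p under 0.01 left 1299 rises. Covariates lowered the counts: 683 and 894 with the hybridization controls, 1397 rises with the 3′ to 5′ ratio, and 929 and 1532 with the leukocyte genes. The levels of the hybridization controls and of the leukocyte genes each separate the groups, so both are partly confounded with the comparison. Without PM 1, VVM 2 and VVM 3 there were 1153 and 1872. Leaving out 1 array gave 1905 to 2329 rises and 2639 to 2931 falls. Centring each array gave 1708 and 3530. The replicate block gave 2207 and 2948, although no label says that replicate numbers pair the samples. Of 5622 calls, 1503 held with the hybridization controls and 2344 with the leukocyte genes as a covariate, and 2916 without the 3 arrays. Among 135 called named genes the numbers were 70, 96 and 108, and among the 24 largest changes 23, 24 and 24. Probe set choice turned some calls. With the mean of all probe sets of a gene, 4826 of 5622 calls held and 25 were called the other way. Without probe sets ending in _x_at or _s_at, 5265 held and 27 were called the other way. In both settings 0 named genes reversed. Leaving out 1 array ended the call of 12 named genes (ATF4, BTC, CCL3, CYP51A1, FST, ID3, INHA, INSIG2, PTGFRN, STAT2, TGFBI and UQCRB) and turned the sign of 0 of the 135; among 7 named genes not called it turned HSD3B2. BTC reversed with the hybridization controls (0.012) and CCL3 with the leukocyte genes (-0.12); the cause was not tested.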

Other observations

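Stress and survival genes moved one by one. Of 27 antioxidant genes 8 rose and 3 fell: SOD2, the mitochondrial superoxide dismutase, read 9.56 to 10.01 in PM and 10.62 to 11.95 in VVM (1.53), GSTM3, a glutathione transferase gene, rose by 1.87, and GCLC, which starts glutathione synthesis, fell by 1.28. Among 25 apoptosis genes 6 rose and 3 fell; MCL1, which protects cells, rose by 1.90 (7.88 to 8.17 in PM, 9.57 to 10.30 in VVM), the inflammatory caspase CASP4 by 2.36, and the killer proteins BAX and BAK1 fell by 1.25 and 0.75. Of 23 amino acid genes 7 rose and 4 fell: glutamine synthetase (GLUL) rose by 1.94 and the serine and proline enzymes PHGDH and ALDH18A1 fell by 1.66 and 1.81.

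Of 20 genes of the endoplasmic reticulum 5 rose and 2 fell, all by under 2-fold; P4HB, a disulphide isomerase gene, rose by 0.73. Of 21 immediate early genes 3 rose and 5 fell, and the falls numbered 3 without PM 2, VVM 1 or VVM 4. ZFP36, which destabilises mRNA, read 3.85 to 4.30 in PM and 7.96, 7.32, 9.70 and 8.53 in VVM, whereas its relative ZFP36L2 fell by 1.98 with overlapping groups. Hypoxia genes had 6 rises and 4 falls of 21, and 2 rises without PM 1 or PM 4 and 3 without PM 2 or VVM 1; ANGPTL4 rose by 2.83 and the prolyl hydroxylase P4HA1 fell by 2.08. Of 34 ribosomal protein genes 4 rose and 7 fell, with a median of -0.01; the falls numbered 3 without PM 1 and 4 without PM 2, PM 3 or VVM 3.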
